A study of Mus musculus with 8 samples.

Results

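Genes of the cell cycle and of DNA replication were compared between cells sorted from the cortex and from the lungs of mouse embryos at E13.5. The set comprised 40 genes chosen by name, from the loading of the replicative helicase to the mitotic spindle, with the cyclins, their kinases and 3 inhibitors. Among the probe sets annotated to a gene alone, the one brightest on average over the 8 arrays stood for that gene. This gave values for 39 of the 40, out of 18193 genes tested, and Ccnb1 was not analysed here. The embryos were homozygous for Tie2-GFP, a transgene that places green fluorescent protein under the promoter of Tek (Tie2), an endothelial receptor gene, and GFP-positive cells were taken by flow sorting. The cortex group (4 arrays) came from cortex freed of meninges and choroid plexus, and the lung group (4 arrays) from whole lungs. Both groups shared genotype, age, collagenase dissociation and linear RNA amplification, and each array held 1 tissue of a pooled litter of 10 to 13 embryos. The arrays carry the numbers 72, 22, 19 and 18 in each tissue, and nothing in the labels ties a number to 1 litter.

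A dividing cell loads the Mcm2-7 helicase onto origins in G1 with the help of Cdc6 and Cdt1, and fires it in S phase. D-type cyclins with Cdk4 and Cdk6, and then cyclin E with Cdk2, phosphorylate the retinoblastoma protein and release E2F factors, which transcribe the replication genes. Genes of G2 and mitosis form a later wave read through CHR elements by MuvB complexes with B-Myb and FoxM1. Inhibitors of the Cip/Kip family (Cdkn1a and Cdkn1b) and of the INK4 family (Cdkn2c) restrain the kinases. At this age the cortex is rich in dividing radial glia and in newborn neurons that have left the cycle, and vessels grow in both organs.

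Letters bound by the factors of both waves were searched in the start regions of the genes. Windows of 250 bases before to 50 bases after the start (RefSeq, GRCm38.p6) were matched by symbol for 34 of the 40 genes. Both strands were searched for an E2F motif in its forms TTTCCCGC, TTTCGCGC, TTTGCCGC and TTTGGCGC, for the CHR motif TTTGAA and for CCAAT, the letters bound by NF-Y. E2F forms on opposite strands can overlap, as in Mcm6. The E2F letters were found in 6 of 8 licensing genes, Mcm3, Mcm5, Mcm6, Mcm7, Cdc6 and Cdt1, in 0 of 4 genes of DNA synthesis, in 1 of 5 G1 cyclins and kinases and in 0 of 11 mitotic genes, against 2.6% of all genes with a window (2.26% of all windows). The CHR letters were found in 8 of the 11 mitotic genes and in 1 of the 8 licensing genes, against 20.2% of all genes (17.9% of windows). CCAAT was found in 26 of the 34 genes, against 41.1% of all genes (37.4% of windows). Matches are letters in a window and were not tested as binding sites. Of the 6 licensing genes with E2F letters, Mcm3, Mcm6, Cdc6 and Cdt1 passed the test of the tissues and Mcm5 and Mcm7 did not. Mcm2 and Mcm10, without these letters, did not pass either. A relation of the letters to the tissue differences was not tested. The windows below show 2 licensing genes that were lower in cortex (Cdc6 at chr11:98907901-98908200, plus strand, and Mcm6 at chr1:128359656-128359955, minus strand) and 2 genes of the later wave that did not pass the test of the tissues (Cdk1 at chr10:69352863-69353162, minus strand, and Ccnb2 at chr9:70421505-70421804, minus strand). Each is printed in the direction of transcription. Capitals mark the E2F letters in Cdc6 and Mcm6, both motifs in Cdk1 (the E2F form first, then 2 CHR elements) and the CHR letters in Ccnb2.
Cdc6: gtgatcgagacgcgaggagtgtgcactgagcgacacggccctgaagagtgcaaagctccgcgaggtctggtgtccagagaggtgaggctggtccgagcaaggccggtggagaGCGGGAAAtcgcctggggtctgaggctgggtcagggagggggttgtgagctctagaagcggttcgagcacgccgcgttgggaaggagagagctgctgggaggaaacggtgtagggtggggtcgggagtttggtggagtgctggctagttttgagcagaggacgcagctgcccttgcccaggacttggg
Mcm6: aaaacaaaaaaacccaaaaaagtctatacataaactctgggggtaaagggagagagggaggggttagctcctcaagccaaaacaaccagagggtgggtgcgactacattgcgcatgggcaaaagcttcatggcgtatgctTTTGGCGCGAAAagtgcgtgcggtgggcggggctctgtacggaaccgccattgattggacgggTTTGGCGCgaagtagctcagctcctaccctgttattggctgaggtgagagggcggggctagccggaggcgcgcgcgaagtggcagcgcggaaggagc
Cdk1: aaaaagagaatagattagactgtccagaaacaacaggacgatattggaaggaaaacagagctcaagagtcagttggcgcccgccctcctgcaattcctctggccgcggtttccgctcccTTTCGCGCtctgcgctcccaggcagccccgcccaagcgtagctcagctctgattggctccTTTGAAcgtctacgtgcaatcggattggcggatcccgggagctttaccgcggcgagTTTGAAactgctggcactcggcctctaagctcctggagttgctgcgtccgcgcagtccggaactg
Ccnb2: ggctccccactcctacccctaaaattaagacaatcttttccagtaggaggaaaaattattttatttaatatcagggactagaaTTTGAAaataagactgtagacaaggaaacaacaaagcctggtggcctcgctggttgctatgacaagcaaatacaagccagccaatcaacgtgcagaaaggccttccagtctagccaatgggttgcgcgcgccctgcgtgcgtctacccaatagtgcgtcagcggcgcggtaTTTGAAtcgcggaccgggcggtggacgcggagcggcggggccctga

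Values are log2 expression per probe set after RMA. A gene was called where its limma p, adjusted by Benjamini-Hochberg over all genes, was under 0.05. Array medians lay between 6.59 and 6.72. For the 4 samples numbered 19 and 18 the free-text description contradicts the title as to tissue, and the title was used. Sox2, a factor of neural progenitors, lay between 11.04 and 11.51 on the arrays titled cortex and between 3.81 and 4.85 on those titled lung. The sorted cells held endothelial transcripts with others beside them. The mean of 26 pan-endothelial markers lay between 9.62 and 11.44 on the cortex arrays and between 11.38 and 11.94 on the lung arrays. Called were 5 of the 26 (19.2%, against 18.1% of all genes), all higher in lung. The mean was lower in cortex for 25 of the 26, with a median difference of -1.08 against -0.09 over all genes. For 17 of them the unadjusted p was under 0.05 (limma). Tek, Pecam1 and Cdh5 lay at 11.70, 8.98 and 8.39 in cortex and 12.93, 10.46 and 9.65 in lung, none of them called. Of 14 measured markers of neural progenitors 13 were higher in cortex (list means 10.23 to 10.93, against 6.33 to 6.62 in lung), and of 13 neuron markers 12 were (10.98 to 11.59 against 6.69 to 6.97). Macrophage markers were higher in cortex for 5 of 11 (5.66 to 9.24 against 5.04 to 6.38) and erythroid markers for 2 of 8 (6.57 to 7.30 against 5.89 to 6.35). Mesenchyme markers were higher in lung for 8 of 11 (5.84 to 6.42 in cortex, 7.40 to 9.75 in lung), lung epithelial markers for 3 of 9 (5.86 to 7.18 and 6.68 to 8.29) and mural markers for 2 of 9, with 1 higher in cortex (6.82 to 7.18 and 6.82 to 8.45). The part of these cells in the results that follow was not tested, and in sorted bulk RNA fewer cells of a type and less RNA per cell cannot be told apart.

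The genes that differed between tissues were licensing factors, D-type cyclins and inhibitors. Of the 9 licensing genes 4, together with the cyclins Ccnd1 and Ccnd3, were lower in cortex. The cyclin Ccnd2 and the inhibitors Cdkn1b and Cdkn2c were higher, and 0 of 12 mitotic genes were called. These lists are short, and a contrast between them was not tested. Among the 39 genes, cortex had the higher level for 3, lung for 6, and 30 were not called. Called genes made up 23.1% of the 39, against 18.1% of all genes tested, so the share as a whole was near the background. Towards cortex the background was 10.4% and towards lung 7.71%. Differences were small: 3 of the 39 were called at 2-fold or more, against 12.8% of all genes, and the whole range ran from -1.23 to 1.25 log2 units, cortex minus lung. The 6 called towards lung became 3 without cortex 22 or lung 19, and 4 or more without each other array. The median difference was -0.07 for the 39 genes and -0.09 for all genes. For 12 of the 39, 9 of them higher in lung, the ranges of the tissues were separate, as they were for 24.5% of all genes.

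**Figure D1:**
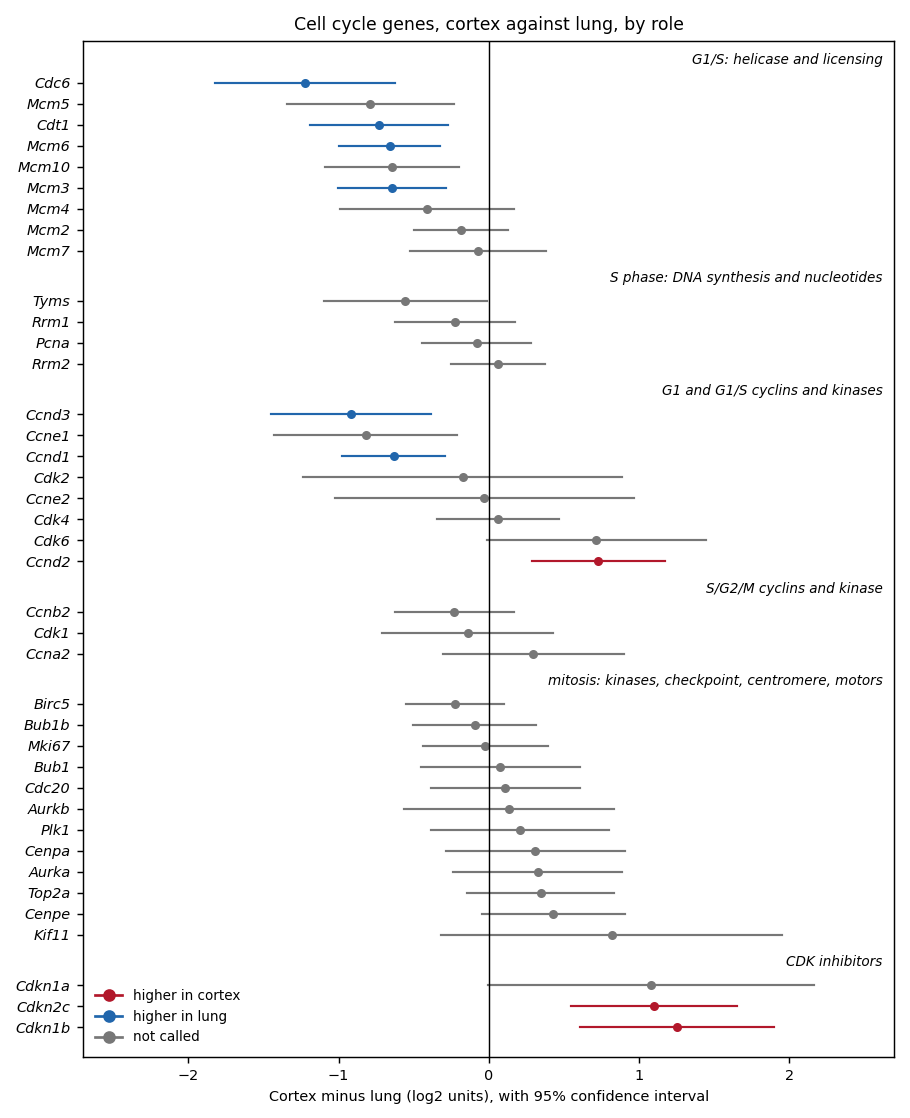
Difference between cortex and lung in log2 units (horizontal axis; points are limma estimates, lines 95% confidence intervals, 4 arrays per tissue) for the 39 measured genes, grouped by role. All 9 licensing genes lie at or left of -0.07, the 12 mitotic genes scatter around 0 without a call, and the 3 inhibitors lie right of 1.

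All 9 genes of helicase loading and assembly had a lower mean in cortex. Of these, 4 passed the test (44.4%, against 7.71% of all genes called towards lung). The median difference of the 9 was -0.65, against -0.09 over all genes. Cdc6, the loader that opens the helicase ring with the origin recognition complex, had the largest difference. It measured 8.85, 8.09, 8.83 and 8.26 on cortex arrays 72, 22, 19 and 18, and 10.09, 9.14, 9.74 and 9.96 on the lung arrays in the same order. Every cortex array lay below every lung array, and the means of 8.51 ± 0.39 and 9.73 ± 0.42 (SD, n = 4) differed 2.34-fold (limma adjusted p = 0.013). Cdt1, its partner in loading, measured 11.72, 11.43, 11.05 and 11.73 in cortex and 12.25, 11.96, 12.09 and 12.54 in lung. The groups did not overlap, with lung 18 highest, and the difference was 1.66-fold (limma adjusted p = 0.0369).

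Among the helicase subunits, Mcm6 and Mcm3 passed. Mcm6 measured 11.82, 11.49, 11.73 and 11.81 in cortex and 12.38, 12.24, 12.24 and 12.64 in lung (1.58-fold lower in cortex, limma adjusted p = 0.0157). Mcm3 measured 11.28, 11.19, 11.39 and 11.45 in cortex and 11.80, 11.91, 11.83 and 12.34 in lung (1.56-fold lower, limma adjusted p = 0.0233). For both subunits lung 18 was the highest array, and no cortex array reached the lowest lung array. All 5 probe sets of Mcm3 were called lower in cortex over all probe sets, with differences of -0.80 to -0.64. Of the 3 of Mcm6 1 was called (-0.66 to -0.24), and of the 3 of Cdt1 also 1 (-1.03 to -0.09). The Cdt1 probe set at -0.09 was dim, with a mean level of 4.93 (levels under 5.46 were treated as dim). The probe set used for Cdt1 was not called over all probe sets (limma adjusted p = 0.0506). Mcm5 and Mcm10, the latter a firing factor that activates the helicase, also had no overlap between tissues, at differences of -0.79 ± 0.24 and -0.65 ± 0.20 (SE), and lay just outside the threshold (limma adjusted p = 0.0571 and 0.0526). Mcm4 (-0.41), Mcm2 (-0.18) and Mcm7 (-0.07) overlapped between tissues and were not called, with a 95% interval of -0.53 to 0.38 for Mcm7. For Mcm4, Mcm5 and Mcm10 another, dimmer probe set was called lower in cortex over all probe sets. Their differences were -0.50, -0.87 and -0.61 (limma adjusted p = 0.0396, 0.0197 and 0.0454), so these calls depend on the probe set. The helicase is a ring of 1 copy of each of Mcm2 to Mcm7, and by the probe sets used its 6 genes thus had differences between -0.79 and -0.07. Lung 18 was the highest lung array for 7 of the 9 licensing genes. Without it 3 were called in place of 4, and also without cortex 72, cortex 19, lung 72 or lung 19. Without cortex 22 the number was 2, with all probe sets tested 3, and with cortex 22 and 19 alone against lung 1. It was 6 with the sample number as a block, median centring, averaged probe sets, array weights or dim genes left out.

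Cdt1 missed the threshold when cortex 72, 22 or 19 or lung 72, 19 or 18 was left out (-0.81 to -0.59), and Mcm3 when cortex 72 (-0.63) or cortex 22 (-0.60) was. Shifting every array to the same pan-endothelial mean raised the median of all genes to 1.05 and turned 8 of the 9 licensing differences to above 0, with Cdc6 at -0.09, a median of 0.49 and no call. The shift is the same for every gene, so the order of the genes did not change.

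Genes of DNA synthesis did not share a call. Of Pcna, Rrm1, Rrm2 and Tyms, 0 passed (against 18.1% of all genes), 1 with an unadjusted p under 0.05 (limma). Pcna, the sliding clamp of the polymerases, measured 12.997, 12.62, 12.47 and 12.80 in cortex and 13.04, 12.67, 12.78 and 12.71 in lung. The tissues overlapped, and the difference of -0.08 had a 95% interval of -0.44 to 0.28. The ribonucleotide reductase subunits, which make deoxynucleotides, lay at -0.23 (Rrm1) and 0.06 (Rrm2). Thymidylate synthase Tyms, the source of thymidylate, lay at 7.43 ± 0.40 in cortex and 7.99 ± 0.31 in lung (SD, n = 4), a difference of -0.56 without a call (limma adjusted p = 0.151). The probe sets of Rrm2 disagreed in sign, from -0.72 to 0.27, none called.

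The D-type cyclins, which couple growth signals to Cdk4 and Cdk6, went in different directions. Ccnd1 measured 11.93, 11.64, 12.06 and 11.85 in cortex and 12.71, 12.29, 12.58 and 12.42 in lung (1.55-fold lower in cortex, limma adjusted p = 0.0206). Ccnd3 measured 9.60, 9.87, 10.31 and 9.16 in cortex and 10.75, 10.49, 10.63 and 10.73 in lung (1.89-fold lower, limma adjusted p = 0.0277). Ccnd2 measured 12.80, 13.11, 12.89 and 13.21 in cortex and 12.53, 12.23, 12.53 and 11.81 in lung (1.66-fold higher, limma adjusted p = 0.0334). For none of the 3 cyclins did the tissues overlap, as was so for 24.5% of all genes. The lung arrays of Ccnd3 lay within a narrow band, while its cortex arrays spread with an SD of 0.48. Their order, 19, 22, 72 and 18 from high to low, was that of the pan-endothelial means of these arrays (11.44, 11.35, 10.04 and 9.62). In lung the orders differed, with Ccnd3 running 72, 18, 19 and 22 and the pan-endothelial means 19, 22, 72 and 18. Ccnd2 did not follow that order, being highest on cortex 18. A relation of these cyclins to the pan-endothelial means was not tested.

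All 7 probe sets of Ccnd2 lay above 0, from 0.17 to 0.98, and 4 were called over all probe sets. All 3 of Ccnd1 lay below 0, from -0.88 to -0.47, with 2 called, and all 3 of Ccnd3, from -0.92 to -0.24, with 1 called. The uncalled probe sets of Ccnd3 were dim, at mean levels of 5.18 and 5.05, and say little either way. Levels of different probe sets are not comparable, but their difference within an array can be set between tissues. Within an array, Ccnd1 minus Ccnd2 was -1.13 ± 0.33 in cortex and 0.23 ± 0.26 in lung (SD, n = 4), a shift of -1.36, and Ccnd2 minus Ccnd3 shifted by 1.65. Both shifts had p = 0.0286 in an exact two-sided permutation test over the 8 arrays, the smallest that 4 against 4 allows, and adjusted p = 0.0762 over the 8 isoform pairs compared. Ccnd1 minus Ccnd3 shifted by 0.28 (exact permutation p = 0.343). Of the 8 pairs, 0 passed after adjustment and 3 had an unadjusted p under 0.05. These 3 held the smallest p that the test allows. With no more pairs at that value none could pass after adjustment, whatever the size of its shift.

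Ccnd2 missed the threshold when any single cortex array or lung 22 was left out (0.66 to 0.80), Ccnd3 when cortex 72 or 18 or lung 72, 19 or 18 was (-0.92 to -0.72), and Ccnd1 when cortex 22 or 18 or lung 19 was (-0.62 to -0.56). With arrays centred on their medians Ccnd2 also missed it (0.65, limma adjusted p = 0.0501), and under pan-endothelial scaling Ccnd1 lay at 0.50 and Ccnd3 at 0.22, uncalled.

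The partners of these cyclins were not called. Cdk4 lay at 12.79 ± 0.23 in cortex and 12.72 ± 0.25 in lung (SD, n = 4), and its 3 probe sets differed by 0.06 to 0.08. Cdk6 lay at 10.17, 9.97, 9.55 and 9.86 in cortex and 9.78, 9.01, 9.61 and 8.30 in lung, so that the groups overlapped (0.72, limma adjusted p = 0.165). Cdk4 minus Cdk6 shifted by -0.65 (exact permutation p = 0.0286, adjusted p = 0.0762). Of the E-type cyclins, which drive entry into S phase with Cdk2, Ccne1 averaged 8.67 ± 0.43 in cortex and 9.49 ± 0.39 in lung (SD, n = 4), with separate ranges but no call (limma adjusted p = 0.0687). The other probe set of Ccne1 was called lower in cortex over all probe sets (-0.73, limma adjusted p = 0.0493). Ccne2 and Cdk2 differed by -0.03 and -0.17 with wide intervals, -1.03 to 0.97 and -1.24 to 0.89.

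**Figure D2:**
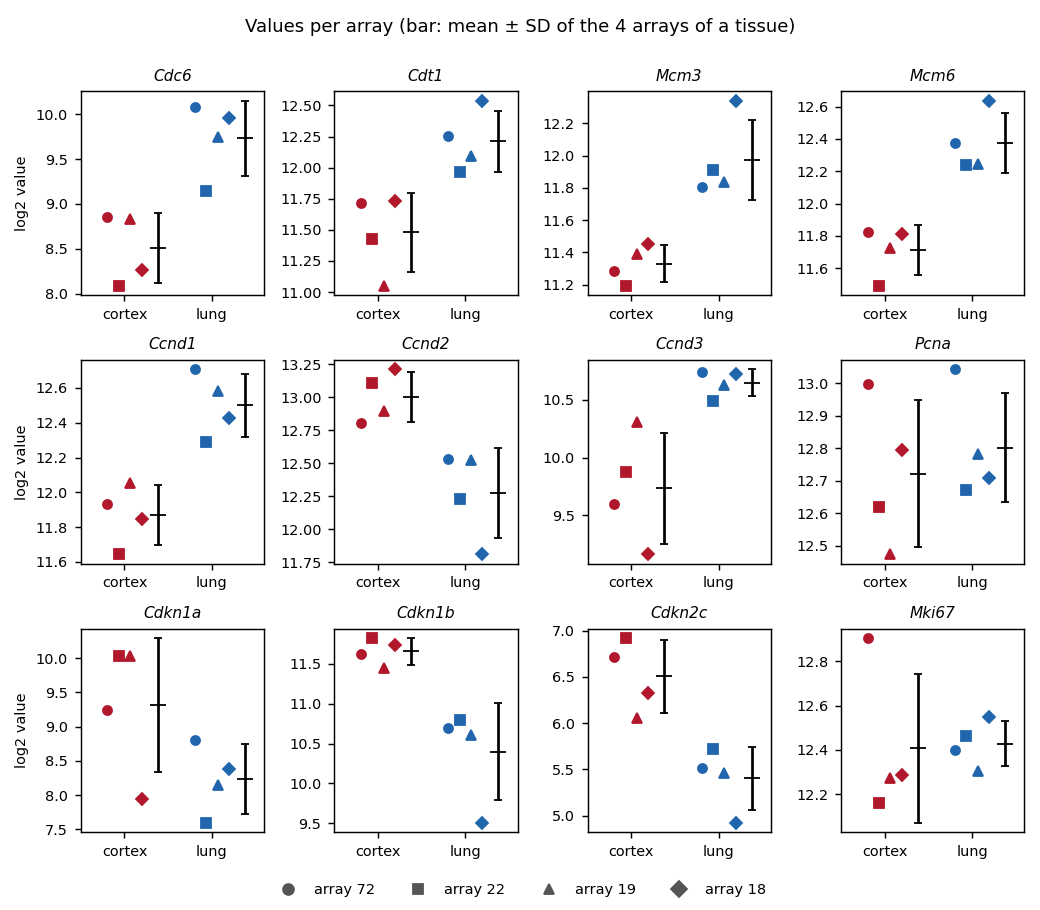
Log2 values (vertical axes, each with its own range) of 12 genes on the 4 cortex arrays (red) and 4 lung arrays (blue), with symbols for the array numbers and bars for mean ± SD. The tissues separate for Cdc6, Cdt1, Mcm3, Mcm6, the 3 D-type cyclins, Cdkn1b and Cdkn2c, and overlap for Pcna, Cdkn1a and Mki67.

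The cyclins and kinase of S phase, G2 and mitosis overlapped between tissues. Ccna2, the cyclin of S phase and G2, differed by 0.30, Ccnb2, a mitotic cyclin, by -0.23, and Cdk1, the mitotic kinase, by -0.14. Of these 3, 0 were called, against 18.1% of all genes, and 0 had an unadjusted p under 0.05 (limma).

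Genes of mitosis gave no call either, with 0 of 12 passing, against 18.1% of all genes, and 0 with an unadjusted p under 0.05 (limma). Their median difference was 0.17, and 9 of the 12 were above 0. Mki67, a coat protein of mitotic chromosomes used as a proliferation marker, measured 12.90, 12.16, 12.27 and 12.29 in cortex and 12.40, 12.46, 12.31 and 12.55 in lung. The lung values lay inside the cortex range, and the 95% interval of the difference, -0.44 to 0.39, allows a change of either sign. Top2a, the topoisomerase that untangles sister chromosomes, measured 12.11, 11.77, 11.50 and 11.87 in cortex and 11.81, 11.38, 11.68 and 10.99 in lung (0.35, limma adjusted p = 0.31). The groups overlapped, with lung 18 the lowest of the 8 arrays.

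The Aurora kinases (Aurka 0.33, Aurkb 0.13) and the polo kinase Plk1 (0.21), which build and control the spindle, were not called. Nor were the checkpoint kinases Bub1 (0.08) and Bub1b (-0.09), the activator of the anaphase-promoting complex Cdc20 (0.11) and the passenger subunit Birc5 (-0.22). The centromeric histone Cenpa (0.31), the kinetochore motor Cenpe (0.43) and the spindle motor Kif11 (0.82) completed the list. Kif11 had the largest difference and the widest interval, -0.32 to 1.95, and without lung 18, which lay at 7.17, its difference was 0.28. Array 72 was the highest of its tissue for 11 of the 12 mitotic genes in cortex and for 11 in lung, and lung 18 was the lowest lung array for 9. In the list means, array 72 stood at 11.05 in cortex and 10.98 in lung, and lung 18 at 10.05. Lung 18 was at the same time the highest lung array for most licensing genes. Pan-endothelial scaling gave 5 mitotic genes higher in cortex (Top2a, Aurka, Cenpa, Cenpe and Kif11) with a median of 1.31, against 1.05 over all genes.

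**Figure D3:**
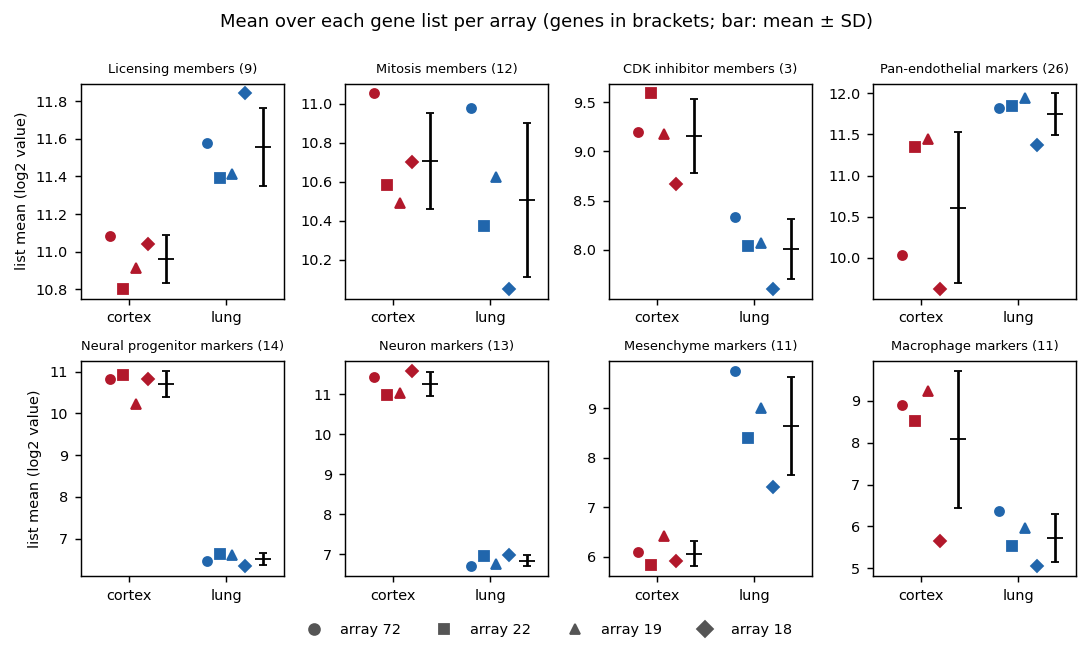
Mean log2 value over a gene list (vertical axes, each with its own range; number of genes in brackets) on every array, with symbols for the array numbers and bars for mean ± SD of 4 arrays. Licensing genes separate the tissues (10.80 to 11.08 in cortex, 11.39 to 11.84 in lung), and mitotic genes do not (10.49 to 11.05 and 10.05 to 10.98). Neural and mesenchymal markers also separate them, and pan-endothelial markers overlap (9.62 to 11.44 and 11.38 to 11.94).

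Of the 3 inhibitors, all chosen by name, 2 were higher in cortex, and the other, Cdkn1a, overlapped. Of all genes 10.4% were called towards cortex, and 24.5% had separate ranges in either direction. Cdkn1b (p27), which binds cyclin-kinase complexes and accumulates as neurons leave the cycle, measured 11.62, 11.82, 11.44 and 11.74 in cortex and 10.69, 10.80, 10.61 and 9.50 in lung. The groups did not overlap, lung 18 stood below the other lung arrays, and the difference was 2.38-fold (limma adjusted p = 0.0163). Without lung 18, the lowest array, it was 0.95 log2 units and still called. Cdkn2c (p18), which binds Cdk4 and Cdk6, measured 6.72, 6.92, 6.05 and 6.32 in cortex and 5.51, 5.72, 5.46 and 4.92 in lung, again without overlap (2.14-fold, limma adjusted p = 0.0146). Its lung mean of 5.40 lay below 5.46, the level under which genes were treated as dim, so that it was not shown to be above background there and the fold rests on that dim value. Both calls held without each single array, and were lost when cortex 22 and 19 alone were set against lung (1.23 and 1.08, limma adjusted p = 0.124 and 0.104).

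Cdkn1a (p21), the inhibitor induced by p53, measured 9.25, 10.03, 10.03 and 7.95 in cortex and 8.81, 7.59, 8.15 and 8.39 in lung. The groups overlapped through cortex 18, and the difference of 1.08 ± 0.47 (SE) was not called (limma adjusted p = 0.161). Without cortex 18 it was 1.53 and called (limma adjusted p = 0.0189), and with cortex 22 and 19 alone 1.79 (limma adjusted p = 0.021). Cortex 22 and 19 were the arrays with the higher pan-endothelial means, 11.35 and 11.44, and cortex 18 had the lowest, 9.62. The mean of the macrophage markers was also lowest on cortex 18 (5.66, against 8.90, 8.52 and 9.24 on cortex 72, 22 and 19). Neither relation to Cdkn1a was tested. The 3 inhibitors did not differ in their shift beyond the spread, with shifts between pairs of -0.17, -0.02 and 0.15 and an exact permutation p of at least 0.457.

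**Figure D4:**
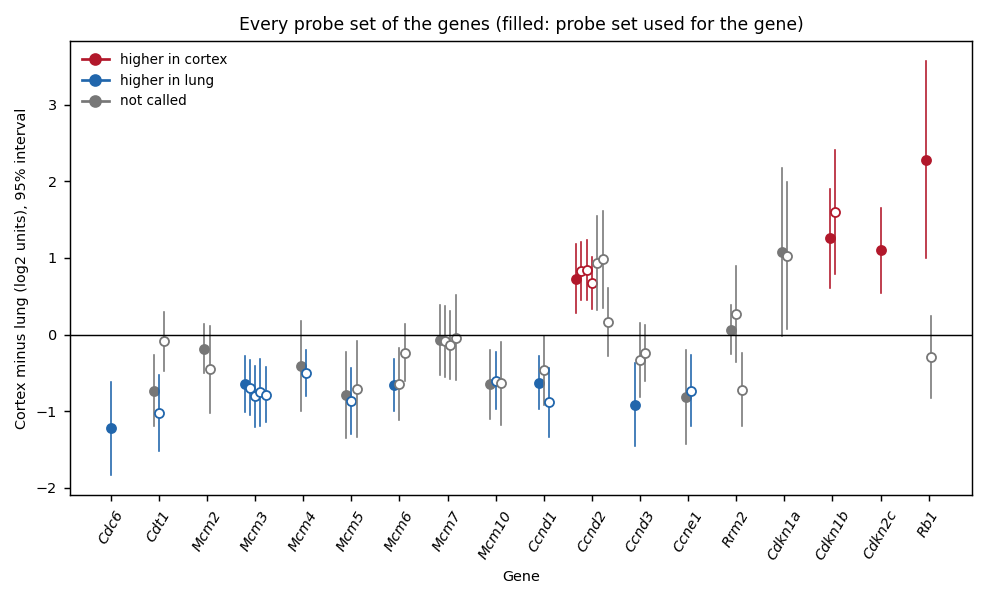
Difference between cortex and lung in log2 units (vertical axis, with 95% confidence intervals) for every probe set of 18 genes, ordered within a gene from the brightest to the dimmest and coloured by the call over all probe sets. The filled symbol is the probe set used for the gene. All 7 probe sets of Ccnd2 lie above 0 and all 5 of Mcm3 below it, and 1 of the 2 of Rb1 stays near 0.

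The 39 genes had 96 probe sets, and 30 of the genes had more than 1. A probe set of opposite sign existed for 6 genes (Aurka, Bub1, Cdk6, Cenpa, Rrm2 and Top2a), and 0 of these were called that way. Those of Aurka, Cdk6 and Top2a were dim, at mean levels of 4.72, 4.63 and 4.02. Those of Bub1, Cenpa and Rrm2 lay at 6.30, 6.94 and 9.56.

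Other genes of the same pathway, 151 measured of 155 listed, were called in 12 cases towards cortex and 4 towards lung. That is 10.6%, below the 18.1% of all genes, with a median of 0.06. The 12 became 3 or 4 without cortex 72, 22 or 18 or lung 22 and 6 without lung 19 or 18, and the 4 became 1 without cortex 22, 19 or 18 or lung 72 and 2 without lung 22 or 19. Origin recognition and firing gave 2 of 18 lower in cortex (11.1%, against 7.71% of all genes called towards lung). The GINS subunit Gins2 led them, at 9.76 ± 0.35 in cortex and 10.51 ± 0.25 in lung (1.68-fold, limma adjusted p = 0.0407). Of 24 genes of polymerases, fork and nucleotide supply, 1 was higher and 1 lower (8.33% called, against 18.1% of all genes). Chaf1b, a subunit of the chromatin assembly factor, was 1.88-fold lower in cortex (limma adjusted p = 0.0431), and the deoxycytidine kinase Dck of the salvage pathway 1.82-fold higher (limma adjusted p = 0.0284). Of these 24 genes 19 had a lower mean in cortex, with a median of -0.26.

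Of 18 genes of the E2F, pocket protein and MuvB circuit 1 was called (5.56%, against 18.1% of all genes). Rb1, the retinoblastoma protein that holds E2F in check, measured 9.69, 9.97, 9.44 and 9.61 in cortex and 8.30, 7.14, 8.47 and 5.68 in lung. The cortex arrays lay close together and the lung arrays were spread widely, with lung 18 lowest. The difference was 4.86-fold (limma adjusted p = 0.023), and 1.71 log2 units without lung 18. It missed the threshold when cortex 72, 22 or 18 or lung 22 was left out (2.18 to 2.30). The other probe set of Rb1 differed by -0.29 and was dim, at a mean level of 5.07. E2f1, the activating E2F, lay at -0.47 (limma adjusted p = 0.175) and Foxm1, the mitotic activator, at 0.57 (limma adjusted p = 0.164).

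Among 20 other regulators of the kinases and antiproliferative genes, 4 were higher in cortex and 1 lower (25% called, against 18.1% of all genes). The phosphatase Cdc25a, which activates Cdk2, was 1.58-fold lower in cortex, at 9.98 ± 0.18 against 10.64 ± 0.11 (limma adjusted p = 0.012), and stayed called without each single array. Its relatives went the other way: Cdc25b was 2.18-fold higher in cortex without overlap (limma adjusted p = 0.00478). Cdc25c lay at 0.62 and was not called (limma adjusted p = 0.0783). Gas1, a growth-arrest protein that is also a hedgehog co-receptor, was 6.66-fold higher in cortex, at 10.14 ± 0.76 against 7.40 ± 1.30 (SD, n = 4; limma adjusted p = 0.0189). It missed the threshold when cortex 22, cortex 18 or lung 22 was left out (2.46 to 2.63). Cdkn1c (p57), a Cip/Kip inhibitor, measured 9.82, 9.78, 9.78 and 8.82 in cortex and 11.70, 11.15, 11.17 and 8.84 in lung. It was not called (-1.16, limma adjusted p = 0.213), and without lung 18, which lay within the cortex range, it was called lower in cortex (-1.79, limma adjusted p = 0.00567).

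Of 26 spindle and cytokinesis genes 3 were higher in cortex (11.5%, near the 10.4% of all genes called towards cortex). The largest difference was that of the microtubule protein Nusap1, at 11.63 ± 0.16 against 10.58 ± 0.55 (2.07-fold, limma adjusted p = 0.0247). Of 31 genes of kinetochore, checkpoint and chromosome structure 3 were higher in cortex (9.68%, also near 10.4%). The kinetochore protein Cenpf led them, at 10.08 ± 0.45 against 8.93 ± 0.58 (2.21-fold, limma adjusted p = 0.0423). Nusap1 missed the threshold when cortex 72, 22 or 18 or lung 22 or 19 was left out (1.004 to 1.10), and Cenpf when any array but lung 72 was (0.92 to 1.24). Of 14 genes of the anaphase-promoting complex 0 were called (limma), against 18.1% of all genes, and their median was 0.05. Chaf1b missed the threshold when any array but lung 19 was left out (-1.02 to -0.71), Gins2 when any but cortex 72 was (-0.80 to -0.62), and Dck when cortex 22, 19 or 18 or lung 22 or 18 was (0.71 to 0.88).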

How the data were processed

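Values of Affymetrix mouse arrays, as deposited, were on a log2 scale, 1 per probe set. RMA (background correction, quantile normalization and summary of probes) and affy are named in the submitters' processing notes, the version not given in the sources used here. Every difference is therefore relative to the rest of the array. All 8 columns were used. Arrays have no read depth, and their number limits the precision. Without 64 control probe sets, 34945 of 45037 probe sets named 1 gene in the platform annotation, which gave 18193 genes by the brightest probe set.

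The tissues were compared with lmFit and eBayes of limma 3.58.1 (R 4.3.3), without a block, two-sided, with Benjamini-Hochberg adjustment over all genes. Differences are cortex minus lung. The fit was tested on simulated data. Isoform pairs used an exact permutation test. Members, lists and tests were chosen with earlier results of these data known. Values on each array were given for the called among the 39 genes, D-type cyclins, inhibitors, Mki67, Top2a and Pcna by rule, and for Cdk6, Rb1 and Cdkn1c after they were seen. Motifs and printed windows were also chosen after values and matches were seen. In each other list the called gene with the largest difference towards each tissue was named, plus Cdkn1c, E2f1, Rb1 and Foxm1. Cdc25b and Cdc25c were named after their values were seen. Alternatives left out each array, added the sample number as a block, centred arrays on medians, scaled to endothelial markers, averaged probe sets, left out dim genes (below the 25th percentile), weighted arrays or tested all probe sets. P-values rest on the spread between arrays of a tissue. Each array held a pooled litter, and differences of litter, sorting, amplification and array cannot be told apart in that spread.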

Additional observations from a re-analysis of the deposited data

Results flagged for a closer look

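In 6 of 100 groups of 4 arrays checked (50 genes in 2 tissues), 1 array stood apart from the other 3 by nearly the whole range of the group, where chance gives about 1 in 20 groups. Cortex 72 stood above the others for Mki67 (12.90, next 12.29), Aurka (10.61, next 10.04) and Cenpf (10.75, next 9.96). Lung 72 stood above the others for Ccne1 (10.08, next 9.32). Lung 18 stood below the others for Cdkn1b (9.50, next 10.61). Cortex 18 stood below the others for Cdkn1c (8.82, next 9.78).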

How the results depend on the processing

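Without single arrays, genes called lower in cortex numbered 3 to 6 of the 39, and the wider list had 3 to 14 called towards cortex and 1 to 3 towards lung. With the sample number as a replicate block, the 39 genes gave 2 towards cortex and 8 towards lung, and the wider list 9 and 5. Of the cyclins, Ccnd2 (limma adjusted p = 0.0868) and Ccnd3 (0.0542) lost their calls under the block. Deviations of the same-numbered arrays 72, 22, 19 and 18 correlated at r = 0.33, -0.16, 0.01 and 0.31 across genes. Array 72 was the highest of its tissue for 24 of the 39 genes in cortex and for 27 in lung. The numbers were not taken as pairs because no label ties a number to 1 litter. Whether they are pairs was not settled by these values. Pan-endothelial scaling gave 4418 genes towards cortex and 155 towards lung, 10 and 0 of the 39 and 40 and 0 of the wider list, by its construction with the median gene at 1.05. It turned Mcm3 (0.49), Mcm6 (0.48), Cdt1 (0.40), Ccnd1 (0.50), Ccnd3 (0.22), Gins2 (0.39), Chaf1b (0.22) and Cdc25a (0.48) to above 0, none called. The array weight was lowest for lung 18 (0.32), often the extreme lung array, and highest for lung 19 (3.58). Array weights gave 2233 genes towards lung and 10 of the wider list, median centring 7 of the wider list towards cortex, and testing all probe sets 1 of it towards lung. Cortex 22 and 19 alone against lung, chosen after the data were seen, gave 1057 genes towards cortex and 632 towards lung, 1 and 1 of the 39 (Cdkn1a and Cdt1) and 1 and 2 of the wider list, with fewer samples. Causes were not tested. Of the isoform pairs 0 passed after adjustment without each single array (exact permutation test, 2 to 3 with an unadjusted p under 0.05). The smallest p that this permutation test allows was again 0.0286, and with so few pairs at it none could pass. The sign-flip test over same-numbered pairs cannot reach 0.05 and was not run.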
